A study of Homo sapiens with 24 samples.

Results

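The effect of STM2457 on mRNA in U87 MG cells is described from 6 libraries of the 24 in the series, 3 from cells given STM2457 and 3 from cells given the solvent. U87 MG is an established human glioblastoma line, and it was grown in EMEM with 10% serum. The treated group received 50 µM STM2457 and the control group the same volume of DMSO, both for 96 h. The other 18 libraries come from LN229, a second glioblastoma line, and from U87-R and LN229-R, temozolomide-resistant derivatives kept in 50 µM temozolomide. None of the 6 U87 MG libraries had temozolomide. The members here are the genes with a mean of at least 10 normalized counts over the 6 libraries, 16407 of the 28669 genes listed. The labels do not say whether the 3 replicates of a group were separate cultures, and the p-values therefore speak only for the scatter among these libraries. Every group is 1 cell line under 1 dose and 1 time.

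N6-methyladenosine, or m6A, is a methyl mark on adenosines inside mRNA. It is placed by a complex of the catalytic subunit METTL3 with METTL14, WTAP and several adaptor proteins, and it is read by proteins of the YTH family, of which YTHDF2 directs marked mRNAs to decay. The mark is known to lie mainly in long internal exons and near stop codons, and to be sparse close to exon junctions. STM2457 occupies the methyl donor pocket of METTL3 and blocks catalysis. The comparison of treated with control cells asks which mRNAs change when this enzyme is inhibited. Levels of the mark itself were not measured in these libraries.

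The 6 libraries summed to 23044279 to 25349361 normalized counts. Correlations of log2 values were 0.967 to 0.981 within a group and 0.953 to 0.963 between groups. The first principal component, with 40.1% of the variance, separated the treated from the control libraries. Mitochondrially encoded mRNAs took 5.43 to 6.34% of the counts and mRNAs of ribosomal proteins 3.22 to 3.66%, and the ranges of both groups overlapped for each. The mesenchymal glioma genes VIM (108660 to 145063 normalized counts) and CD44 (26625 to 37059) were high in all 6 libraries. The astrocyte filament gene GFAP had 51.2, 12.8 and 0.741 in DMSO and 1.67, 2.24 and 3.70 after STM2457, and the stem cell factor gene SOX2 was at or below 2.34 throughout. The astrocyte gene S100B was at most 2.92. These 3 markers were therefore at or near 0 in most libraries, with GFAP in replicates 1 and 2 of DMSO as the exception. Other stem and astrocyte genes were present, with SLC1A3, an astrocyte glutamate carrier, at 786 to 1510, NES at 746 to 1281 and SOX9 at 123 to 367. The astrocyte gene ALDH1L1 was at most 5.71, and AQP4 was absent from the genes listed. Of the 25 genes in the stem and astrocyte list 22 had values, and 15 passed the level filter.

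Of the 16407 genes tested, 2228 changed with a limma adjusted p under 0.05, which is 13.6% of them. STM2457 raised 1289 (7.86%) and lowered 939 (5.72%). After scaling to equal library totals the split was 1662 and 760, and with equal upper quartiles it was 1163 and 1136. In 5710 genes (34.8%) the values of the groups did not overlap. Among genes with a mean over 10000 normalized counts, 22 of 304 rose and 54 fell, and the median log2 change was -0.11 against -0.01 over all genes. Among 1050 long noncoding RNA genes 42 rose and 42 fell. A call was kept without any 1 of the 6 libraries by 810 genes, 496 higher and 314 lower. Leaving out a library left 890 changed genes without replicate 2 of STM2457, 1208 without replicate 2 of DMSO and 1469 without replicate 3 of STM2457, and at least 1757 without any of the others. Counts in gene lists stand against 7.86% higher and 5.72% lower over all genes, and a count near those shares is no result about a list. Beside short counts of a list's calls, the number that kept the call without any 1 library is given. Every gene said below to have risen or fallen kept its call without any 1 library, unless the libraries it depended on are named. Values of 3 libraries are normalized counts in the order of replicates 1, 2 and 3, and changes are on the scale of log2 of the normalized count plus 1, with their standard error (SE) from 3 against 3 libraries.

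**Figure D1:**
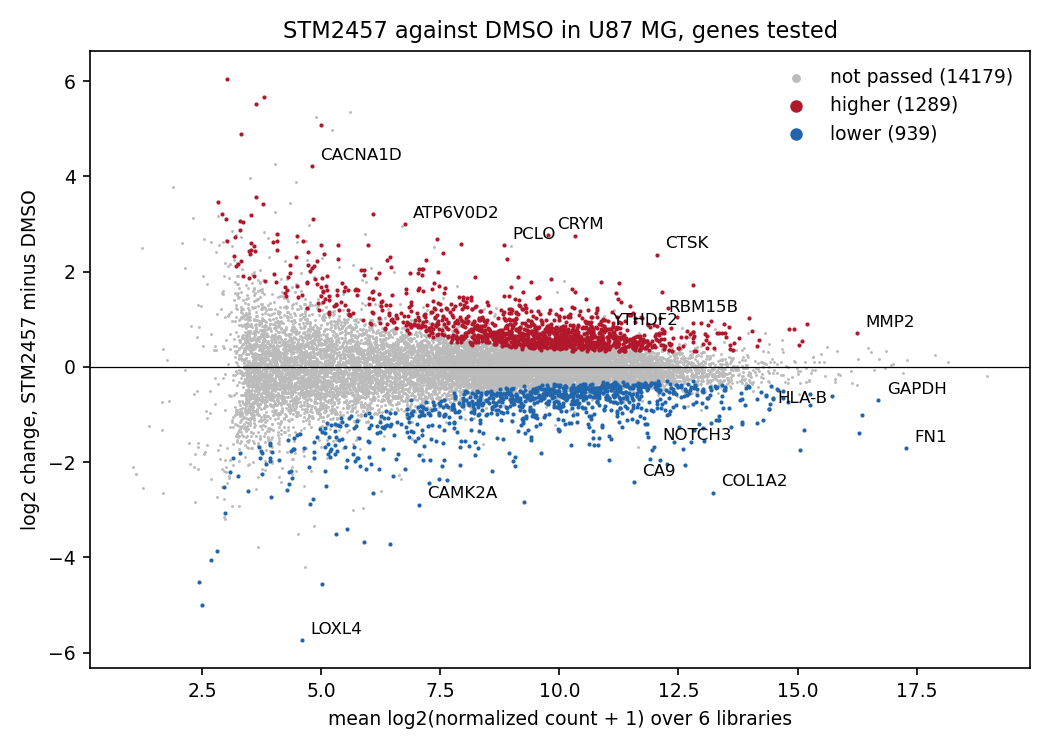
Log2 change of each of 16407 genes (y axis, STM2457 minus DMSO) against its mean log2 level over the 6 U87 MG libraries (x axis). Red points are the 1289 genes that passed and were higher, blue points the 939 that were lower and gray points those that did not pass. FN1 and GAPDH lie below 0 at the right end of the plot, and MMP2 above it.

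The 15 largest rises were ranked among genes with a mean of at least 100 normalized counts and no overlap between the groups. They came from several families. The vacuolar proton pump gene ATP6V0D2 and the lysosomal genes CTSK and ACP5 were among them and are described further on. CRYM encodes mu-crystallin, a ketimine reductase that also binds thyroid hormone. It had 453, 422 and 194 in DMSO and 2618, 2653 and 1692 after STM2457, a rise of 2.77 (SE 0.31; adjusted p = 0.0018). Full separation of the groups was a condition of this ranking, so it is no result for these genes. NMB, the gene of the neuropeptide neuromedin B, went from 543, 755 and 289 to 3726, 4584 and 2135 (2.75, SE 0.36). PCLO, a presynaptic scaffold gene, went from 142, 262 and 177 to 1201, 1392 and 819.8 (2.56, SE 0.26). CAVIN4, a caveola coat gene of muscle, and TDO2, which encodes the dioxygenase that opens tryptophan, rose by 2.05 (SE 0.20) and 1.98 (SE 0.18). The calcium channel gene CACNA1D, with a mean below 100, had 8.31, 6.43 and 2.89 in DMSO and 100.4, 171 and 98.7 after STM2457 (4.22, SE 0.43). Its low control values make the size of that change depend on the pseudocount. Among abundant mRNAs the matrix protease gene MMP2 had 59265, 63930 and 59709 against 102424, 104384 and 92122 (0.71, SE 0.11). The mitochondrial superoxide dismutase gene SOD2 rose by 0.79 (SE 0.11), as did the microtubule-associated gene MAP1A (0.79, SE 0.10).

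Among the 15 largest falls with a mean of at least 100, ranked only where the groups did not overlap, were genes of adhesion, matrix and signalling. The collagen and hypoxia members of that group are described further on. CAMK2A, a calmodulin-dependent kinase gene, had 293, 345 and 471 in DMSO and 68.4, 36.7 and 43.9 after STM2457 (-2.89, SE 0.28; adjusted p = 0.0013). VCAM1, an adhesion receptor for leukocytes, had 315, 185 and 164 against 51.4, 8.16 and 8.83 (-3.67, SE 0.63). CYP26B1, the enzyme that clears retinoic acid, fell by 2.37 (SE 0.28), and ST8SIA5, a sialyltransferase gene, by 2.36 (SE 0.29). CCL2, the monocyte chemokine, fell by 2.15 (SE 0.34). ITGA11, a collagen-binding integrin gene, was at -3.73 (SE 0.78), a call that was lost without replicate 2 of STM2457 (0.051). The libraries measure RNA abundance, so synthesis and decay cannot be told apart.

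**Figure D2:**
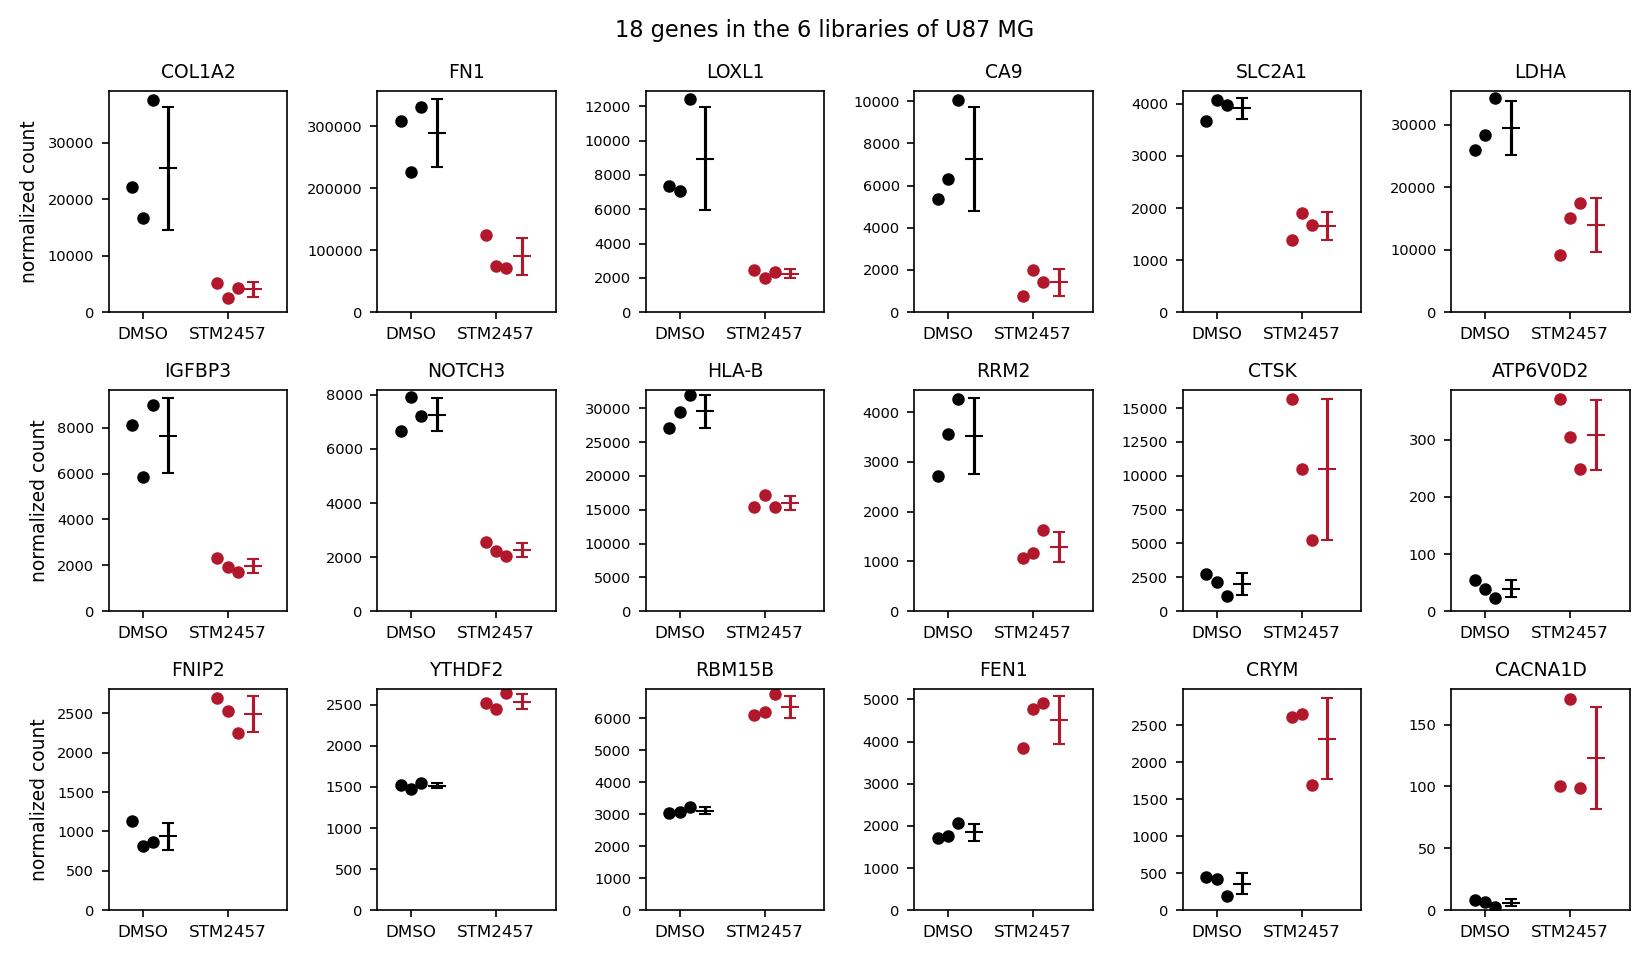
Normalized counts of 18 genes in the 6 libraries of U87 MG, 1 panel per gene with the y axis from 0. Points are libraries, black for DMSO and red for STM2457, with the mean and SD of the 3 beside them. The panels show named genes that passed, so their separation follows from how they were chosen, and the spread of the points shows the replicate error.

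METTL3 itself did not pass, while an adaptor and a reader of m6A had higher mRNA. METTL3 had 648, 636 and 639 in DMSO and 609.6, 686 and 741 after STM2457 (0.08, SE 0.12; adjusted p = 0.70), so its groups overlapped. Of 13 writer genes 4 rose and 0 fell, against 7.86% higher among all genes, with a median log2 change of 0.34 against -0.01. The adaptor gene RBM15B, which brings the complex to RNA, had 3048, 3072 and 3227 against 6113, 6191 and 6748 (1.03, SE 0.09; adjusted p = 0.0012). METTL16, a separate methyltransferase for U6 and for MAT2A mRNA, had 1365, 1347 and 1699 against 2367, 2414 and 2690 (0.77, SE 0.12). RBM15 (0.55, SE 0.11) lost its call without replicate 2 of either group, with a highest adjusted p of 0.072. VIRMA (0.38, SE 0.10) lost it without any 1 library (0.090), and without replicate 2 of either group 2 writers passed. METTL14 (0.34, SE 0.17; adjusted p = 0.23) and WTAP (0.34, SE 0.11; adjusted p = 0.069) did not pass. Of 15 reader and eraser genes 2 rose and 0 fell, and 1 kept its call. The reader gene YTHDF2 had 1522, 1481 and 1544 against 2525, 2455 and 2641 (0.74, SE 0.09; adjusted p = 0.0020), and its paralog YTHDF3 had a change of 0.01 (SE 0.11; adjusted p = 0.98). For YTHDF2 and RBM15B the gap between the groups was wider than the range within either.

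A list of 17 mRNAs that other work has reported as METTL3 or m6A targets had no common direction. In that list 1 member rose and 3 fell, of which 0 and 1 kept the call, and the median was -0.22, which was 0.00 without replicate 3 of DMSO. MYC had 2292, 2664 and 2667 in DMSO and 2113, 2761 and 2598 after STM2457 (-0.03, SE 0.12; adjusted p = 0.89), with overlapping groups. Of 27 genes of the MYC network 0 rose and 1 fell, and that call was not kept.

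The direction of change varied with exon structure. Genes with few exons were more often higher after STM2457, and genes with many exon junctions per kb were more often lower. This grouping was chosen after the values had been seen, so the shares are a description without a test. Each of 12947 tested genes with a coding transcript in GENCODE release 29 was given the transcript with the longest coding sequence, and exon junctions were counted per kb of it. Among 353 genes without a junction 19.8% rose and 2.55% fell, with a median log2 change of 0.17. Among 1880 genes with up to 1 junction per kb 19.4% rose and 4.31% fell, with a median of 0.21. The shares higher then dropped with junction density, to 11.4, 9.19, 5.95 and 4.81% in the classes 1 to 2, 2 to 3, 3 to 4 and 4 to 6 junctions per kb. Among 1572 genes with over 6 junctions per kb 2.23% rose and 9.73% fell, with a median of -0.11. Over all 12947 genes these shares were 9.04% and 6.61%.

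**Figure D3:**
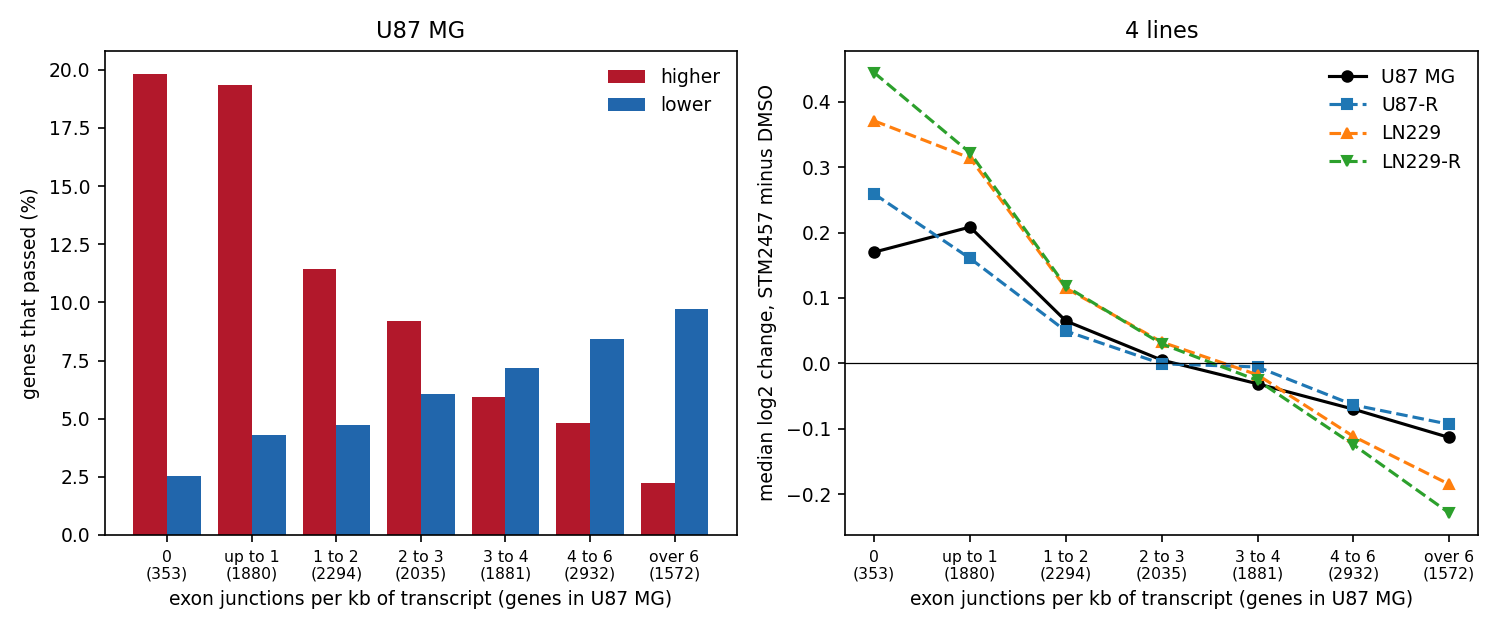
Left, the share of genes in U87 MG that rose (red) or fell (blue) with STM2457 in 7 classes of exon junctions per kb of transcript, with the number of genes in parentheses. Right, the median log2 change (STM2457 minus DMSO) in the same classes in all 4 lines. The share higher runs from 19.8% in genes without a junction to 2.23% in the class over 6, and each line goes from medians above 0 to medians below 0.

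The same order appeared in each treated library against the mean log2 value of the 3 control libraries, so the ratios share their controls. The median log2 ratio in genes without a junction was 0.23, 0.19 and 0.18 in replicates 1, 2 and 3, and in the class over 6 it was -0.12, -0.12 and -0.10. With all members of the gene lists left out, 19.5% of 323 genes without a junction rose, against 2.34% of 1410 genes in the class over 6. The order was also present within ranges of transcript length. Among transcripts up to 2000 bases, 24.7% with up to 1 junction per kb rose against 4.07% with over 4, and among transcripts over 4000 bases the shares were 16.6% and 3.48%. It was present within ranges of level as well. From 100 to 1000 normalized counts 21.8% against 3.43% rose, and above 1000 it was 27.8% against 4.63%. Below a mean of 100 the shares were 4.62% and 3.12%, a range in which few genes passed. Across the 12947 genes Spearman's rho between junctions per kb and log2 change was -0.23. It was 0.05 for transcript length, 0.01 for the length of the longest inner exon and 0.00 for the density of the motif GGACT, a common core of methylated sites, searched on the transcript strand. The 949 genes without an inner exon entered that ranking at a length of 0, and 24.45% of them rose and 4.21% fell. The rho of 0.01 therefore does not describe the genes that have an inner exon. Among 2000 genes whose longest inner exon had up to 150 bases 8.05% rose and 5.8% fell, near the shares over all genes, and among 841 where it had over 1000 bases 12.6% rose and 4.16% fell. Genes share these libraries and are not independent points.

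Named genes at both ends show the size of these changes. The m6A adaptor gene RBM15B and the nutrient sensing gene RRAGA have 1 exon each in this annotation. ZNHIT2, also with 1 exon, encodes a factor for assembly of protein complexes and had 197, 216 and 176 in DMSO and 455, 468 and 504 after STM2457 (1.28, SE 0.14). FANCF, a single-exon subunit gene of the Fanconi anemia ubiquitin ligase, rose by 1.16 (SE 0.14), and the thiol dioxygenase gene ADO by 0.84 (SE 0.09). Of genes with 2 exons, MFSD5, a carrier-like membrane protein gene, had 797, 629 and 683 against 2173, 2143 and 2213 (1.64, SE 0.11; adjusted p = 0.00043). BLOC1S3, which serves lysosome-related organelles, rose by 1.79 (SE 0.16), and the copper chaperone gene SCO2 by 1.46 (SE 0.14). At the other end ASS1, the argininosuccinate synthase gene with 16 exons, had 3634, 2954 and 2982 against 950.3, 1062 and 1033 (-1.65, SE 0.11; adjusted p = 0.00043). CD74, the MHC class II invariant chain gene with 9 exons, had 13397, 11109 and 11895 against 4601, 3498 and 4115 (-1.58, SE 0.12). The nuclear pore gene NUP188, with 44 exons, fell by 0.93 (SE 0.10), and the histone methyltransferase gene EZH2, with 20, by 1.00 (SE 0.11). These genes were picked after their values were seen, from those with low adjusted p in their class. Collagen genes stood at the dense end with a median of 7.70 junctions per kb, against 2.96 over all genes, and mitotic genes at 5.03.

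Genes that tie lysosomes to nutrient sensing rose in part, without a common shift of the lysosomal lists. Lysosomes digest macromolecules with acid hydrolases, are acidified by the vacuolar proton pump, and recruit the growth kinase complex mTORC1 through Rag GTPases held by the Ragulator complex. MITF, TFEB and TFE3 are the transcription factors that drive lysosomal genes. MITF (0.16, SE 0.14; adjusted p = 0.48), TFEB (-0.10, SE 0.22; adjusted p = 0.80) and TFE3 (-0.28, SE 0.10; adjusted p = 0.10) did not pass. Of 24 genes of these factors, Rags and their regulators 5 rose and 1 fell, of which 4 and 0 kept the call, with a median of 0.07. FNIP2, a partner of folliculin in controlling the Rags, had 1134, 814 and 868 in DMSO and 2695, 2526 and 2243 after STM2457 (1.42, SE 0.14; adjusted p = 0.0013). The Rag gene RRAGA had 1279, 1424 and 1405 against 2255, 3060 and 2910 (0.99, SE 0.13), and RRAGC rose by 0.86 (SE 0.13). The Ragulator gene LAMTOR2 rose by 0.64 (SE 0.11). For all 4 genes the groups did not overlap. RRAGD (1.21, SE 0.30) lost its call without replicate 2 or 3 of DMSO or replicate 1 or 2 of STM2457 (0.11).

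Single subunits of the proton pump and a few hydrolases changed strongly. Of 22 pump genes 3 rose and 0 fell, with a median of 0.10. ATP6V0D2, the d2 subunit known from osteoclasts and macrophages, had 54.7, 39.6 and 23.9 in DMSO and 371, 305 and 249 after STM2457 (2.99, SE 0.31; adjusted p = 0.0014). ATP6V0E1 rose by 0.83 (SE 0.11) and ATP6V1F by 0.59 (SE 0.10). Of 48 hydrolase genes 10 rose and 2 fell, with a median of 0.00, and 5 rose without replicate 2 of STM2457, while 4 fell without replicate 1 of STM2457. CTSK, the collagen-cleaving cathepsin of osteoclasts, had 2729, 2136 and 1105 against 15641, 10489 and 5286 (2.36, SE 0.41; adjusted p = 0.0076). CTSK is ENSG00000143387, on chromosome 1 from 150796208 to 150808260 of GRCh38. ACP5, the tartrate-resistant acid phosphatase gene, had 385, 209 and 127 against 1348, 1019 and 841 (2.27, SE 0.35). Both genes varied between replicates, by more than 2-fold in DMSO, and the groups did not overlap. NAGLU, which removes N-acetylglucosamine from heparan sulfate, rose by 1.04 (SE 0.11), and the cathepsin gene CTSS by 0.90 (SE 0.11). CTSO, another cathepsin gene, fell by 1.11 (SE 0.16), and the glycogen-degrading glucosidase gene GAA by 0.85 (SE 0.17). GAA did not pass without the variance trend (adjusted p = 0.060).

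Lysosomal membrane and autophagy genes were mostly within the spread of the replicates. Of 30 membrane genes 1 rose and 3 fell, of which 0 and 1 kept the call, and LAMP1, the most used lysosome marker, had a change of -0.05 (SE 0.11; adjusted p = 0.81). MFSD12, a carrier of lysosomes and melanosomes, had 5610, 5634 and 5830 in DMSO and 3244, 2943 and 3168 after STM2457 (-0.87, SE 0.09). Of 37 autophagy genes 2 rose and 3 fell, of which 2 and 1 kept the call. ATG101, part of the initiating kinase complex, rose by 0.80 (SE 0.11), and WIPI1, which binds early autophagosome membranes, by 0.64 (SE 0.09). The receptor gene SQSTM1 (0.43, SE 0.16; adjusted p = 0.11) did not pass. In a list of 11 melanosome genes 4 rose and 0 fell, and 2 passed without replicate 2 of either group. RAB32, a GTPase of melanosome traffic, rose by 0.89 (SE 0.09), and its partner gene HPS4 by 0.58 (SE 0.10).

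Many collagens and enzymes that modify and cross-link them were lower. Collagen chains are hydroxylated in the endoplasmic reticulum by prolyl and lysyl hydroxylases (P4HA, PLOD), trimmed by BMP1, and cross-linked outside the cell by the LOX family. Of 27 collagen genes 0 rose and 12 fell, against 5.72% lower among all genes, with a median log2 change of -0.75 against -0.01. COL1A1 had 13498, 9521 and 17373 in DMSO and 4151, 2397 and 3111 after STM2457 (-2.06, SE 0.24; adjusted p = 0.0020). COL1A2, the partner chain of type I collagen, had 22156, 16615 and 37452 against 5218, 2561 and 4249 (-2.64, SE 0.32). The lowest control library was above the highest treated library by more than 3-fold for COL1A2. COL6A3, a chain of the microfibrils around cells, went from 131783, 107181 and 118175 to 73419, 49757 and 57046 and fell by 1.00 (SE 0.16), and COL6A1 fell by 0.75 (SE 0.10). COL5A1 fell by 1.73 (SE 0.24), COL5A3 by 1.95 (SE 0.21) and COL7A1, the anchoring fibril chain, by 1.29 (SE 0.13). COL3A1 (-2.87, SE 0.57) lost its call without replicate 2 of STM2457 (0.055). The fibrillar chains COL5A2 (-0.53, SE 0.23; adjusted p = 0.17), COL11A1 (-1.12, SE 0.42; adjusted p = 0.11) and COL27A1 (-0.21, SE 0.18; adjusted p = 0.49) did not pass. Another 11 collagen genes were below the filter.

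Of 21 processing genes 0 rose and 11 fell, with a median of -0.64. LOXL4 had 197, 124 and 222 in DMSO and 2.04, 1.84 and 3.26 after STM2457 (-5.73, SE 0.38; adjusted p = 0.00043), the largest fall of any gene with a control mean over 100. LOXL1 had 7340, 7069 and 12394 against 2442, 1970 and 2340 (-1.95, SE 0.20), and LOXL2 and LOXL3 fell by 1.32 (SE 0.23) and 1.49 (SE 0.23). These are copper amine oxidases that act on lysines of collagen and elastin. The founding member LOX had 2818, 4594 and 14944 against 1342, 1915 and 2276. Its groups did not overlap, but the control values spread widely and it did not pass (-1.68, SE 0.51; adjusted p = 0.060). The hydroxylase genes P4HA2 (-0.54, SE 0.19; adjusted p = 0.10) and PLOD3 (-0.29, SE 0.10; adjusted p = 0.079) and the collagen chaperone gene SERPINH1 (-0.50, SE 0.15; adjusted p = 0.057) did not pass. PLOD1 fell by 0.87 (SE 0.13), PLOD2 by 1.59 (SE 0.27), P4HA1 by 1.27 (SE 0.16) and BMP1 by 0.71 (SE 0.13).

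Other matrix proteins and their receptors followed in part. FN1, the fibronectin gene, had 307936, 226945 and 331656 in DMSO and 124312, 75128 and 71085 after STM2457 (-1.71, SE 0.24; adjusted p = 0.0033). FN1 is ENSG00000115414, on chromosome 2 from 215360865 to 215436068 of GRCh38. Of 31 matrix glycoprotein genes 1 rose and 11 fell, with a median of -0.41, and 6 fell without replicate 2 of STM2457. TNXB, a tenascin gene, fell by 1.81 (SE 0.17), the matrilin gene MATN2 by 1.11 (SE 0.13) and EFEMP2, a fibulin gene needed for elastic fibres, by 0.93 (SE 0.17). Of 25 integrin and laminin genes 0 rose and 6 fell, or 3 without replicate 2 of STM2457. The laminin gene LAMC1 had 19737, 20183 and 20841 against 11594, 11399 and 11844 (-0.80, SE 0.09), and the fibronectin receptor chain ITGAV fell by 0.61 (SE 0.10). In the list of 18 matrix proteinases and inhibitors 2 rose and 1 fell. The rises were MMP2, as given above, and MMP14, which activates it, at 0.60 (SE 0.09). TIMP3, a matrix-bound inhibitor of metalloproteinases, had 10390, 9825 and 9607 against 3328, 2621 and 1601 (-2.04, SE 0.22). TGFBI (-1.40, SE 0.29) lost its call without replicate 2 of STM2457 (0.061).

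In the TGF-beta and BMP list 6 of 40 genes rose and 5 fell, with a median of 0.05. There were 3 rises without replicate 3 of DMSO or replicate 2 or 3 of STM2457, and 3 falls without replicate 2 of DMSO or replicate 2 or 3 of STM2457. BMP2 had 140.4, 172 and 142 in DMSO and 334, 411 and 400.4 after STM2457 (1.33, SE 0.16). The inhibitory SMAD genes SMAD7 (1.58, SE 0.23) and SMAD6 (1.23, SE 0.23) rose, and both are known as induced feedback inhibitors of these pathways. The activin binder FST fell by 1.69 (SE 0.22), and LTBP1, which stores latent TGF-beta in the matrix, by 0.73 (SE 0.12). Of 23 YAP and TAZ genes 2 rose and 3 fell, of which 1 and 2 kept the call, and 6 fell without replicate 1 of STM2457. WWTR1, which encodes TAZ, had 3028, 2930 and 2710 against 1569, 1742 and 1875 (-0.74, SE 0.10), and LATS2, the kinase that inhibits it, rose by 0.75 (SE 0.11).

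The summed level of fibroblast and pericyte markers was also lower. Their sum was 30499.8 to 59369 normalized counts in DMSO and 7723 to 13262 after STM2457, and 4 of 9 tested members fell. COL1A1, COL1A2 and COL3A1 belong to both lists, the fourth was PDGFRB, and THY1 was below the filter. Of the members that are not collagens, FAP (1.23, SE 0.39; adjusted p = 0.071), DCN (1.12, SE 0.39; adjusted p = 0.093) and LUM (0.61, SE 0.70; adjusted p = 0.61) were at positive values and did not pass. ACTA2 (-0.30; adjusted p = 0.26) and RGS5 were at negative values and did not pass either. The part of other cells in the matrix result was not tested. For the other cell types many defining markers were below a mean of 10. For microglia the sum was 147 to 253, nearly all of it CSF1R, with CX3CR1, ITGAM and CD14 below a mean of 10. For endothelium it was 210 to 417, with PECAM1 and CDH5 below 10. For neurons it was 879 to 991 in DMSO and 744 to 796 after STM2457, with SNAP25 at -0.43 (SE 0.12), a call that was lost without any 1 library (adjusted p of up to 0.14), and with RBFOX3, NEFL and NEFM below 10. For oligodendrocytes the sum was 2662 to 2908 in DMSO and 3564 to 3772 after STM2457, nearly all of it CNP (0.41, SE 0.08, a call that was lost without replicate 2 of DMSO or of STM2457, at an adjusted p of 0.055 and 0.069), with MBP and MOG below 10.

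Many genes of glycolysis and of the hypoxia response were lower, and none passed as higher. In low oxygen the factor HIF-1 binds promoters at the core motif ACGTG and raises glucose uptake, glycolysis and lactate export. HIF1A mRNA had 6787, 6472 and 7773 in DMSO and 6121, 5624 and 5614 after STM2457 (-0.27, SE 0.10; adjusted p = 0.10) and did not pass. Of 37 genes in the list 0 rose and 22 fell, against 5.72% lower among all genes, with a median log2 change of -0.52. The other 15 did not pass, and 4 of the 37 had positive values. The count was 12 without replicate 2 of DMSO, and also 12 without replicate 1 or without replicate 2 of STM2457.

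Members that fell lay at several steps of the route of glucose, and others did not pass. The uptake carrier gene SLC2A1 had 3676, 4071 and 3987 in DMSO and 1379, 1909 and 1666 after STM2457 (-1.26, SE 0.13; adjusted p = 0.0013). The regulator PFKFB4 fell by 1.35 (SE 0.14) and the phosphofructokinase gene PFKL by 0.81 (SE 0.12). ALDOA had 48401, 50843 and 56872 against 26047, 31017 and 33294 (-0.79, SE 0.12), and its paralog ALDOC fell by 0.87 (SE 0.09). PGK1, which makes the first ATP of the pathway, had 18741, 20458 and 26937 against 8037, 9719 and 11999 (-1.15, SE 0.18). GAPDH (-0.70, SE 0.17) lost its call without replicate 2 or 3 of DMSO or replicate 1 or 2 of STM2457 (0.10), and ENO1 (-0.61, SE 0.14) without replicate 2 of DMSO or replicate 1 or 2 of STM2457 (0.080). LDHA, which turns pyruvate to lactate, had 25899, 28287 and 34230 against 9138, 15119 and 17507 (-1.12, SE 0.22), and did not pass without the variance trend (adjusted p = 0.060). The lactate exporter SLC16A3 fell by 1.10 (SE 0.14). In each of these genes the 3 treated libraries lay below the 3 controls. The hexokinase genes HK1 (0.20, SE 0.16; adjusted p = 0.44) and HK2 (-0.28, SE 0.12; adjusted p = 0.15), the isomerase gene GPI (-0.38, SE 0.11; adjusted p = 0.056) and the pyruvate kinase gene PKM (-0.38, SE 0.13; adjusted p = 0.079) did not pass. The other phosphofructokinase genes, PFKP (-0.19, SE 0.19; adjusted p = 0.53) and PFKM (0.02, SE 0.11; adjusted p = 0.91), did not pass either.

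Outside glycolysis some hypoxia genes fell and others did not pass. CA9, the surface carbonic anhydrase that marks hypoxic tumour tissue, had 5375, 6320 and 10039 in DMSO and 771, 2017 and 1433 after STM2457 (-2.42, SE 0.34; adjusted p = 0.0034). NDRG1 fell by 1.11 (SE 0.15), and the mitophagy receptor BNIP3 had 3452, 4236 and 4381 against 1443, 2341 and 1885 (-1.11, SE 0.17). The hormone gene ADM (-0.29, SE 0.17; adjusted p = 0.31), CA12 (-0.19, SE 0.10; adjusted p = 0.24) and EPAS1, which encodes HIF-2 alpha (0.33, SE 0.11; adjusted p = 0.075), did not pass, nor did the oxygen sensor gene EGLN1 (0.33, SE 0.13; adjusted p = 0.13). The 150 bases before the RefSeq start of 4 of these genes are shown because they fell and hold the core motif ACGTG on 1 strand or the other. Capitals mark ACGTG or its complement CACGT, and overlapping matches run together. The build is GRCh38.p14, and the sequences read 5′ to 3′ on the gene's strand. CA9 lies at chr9:35673778-35673927 on the plus strand, ALDOC at chr17:28576896-28577045, P4HA1 at chr10:73096867-73097016 and BNIP3 at chr10:131981924-131982073, all 3 on the minus strand.
CA9: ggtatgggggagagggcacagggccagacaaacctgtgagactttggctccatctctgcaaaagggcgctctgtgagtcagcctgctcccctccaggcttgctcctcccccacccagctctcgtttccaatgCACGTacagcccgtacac
ALDOC: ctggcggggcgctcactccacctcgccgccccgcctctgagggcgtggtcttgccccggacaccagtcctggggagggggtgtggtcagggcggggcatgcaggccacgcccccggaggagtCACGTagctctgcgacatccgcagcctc
P4HA1: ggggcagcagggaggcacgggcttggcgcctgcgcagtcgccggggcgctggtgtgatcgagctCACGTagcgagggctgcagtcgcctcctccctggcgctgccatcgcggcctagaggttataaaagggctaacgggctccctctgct
BNIP3: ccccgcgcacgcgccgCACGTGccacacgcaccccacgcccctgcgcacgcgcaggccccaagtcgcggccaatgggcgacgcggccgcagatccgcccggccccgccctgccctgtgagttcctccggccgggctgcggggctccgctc

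In the 250 bases before the start, ACGTG was present on either strand in 18.7% of all 27305 promoters of the table and in 23.3% of 11298 promoters of genes tested here. In the hypoxia list it was present in 14 of 32 matched promoters, and in 10 of the 18 matched among the 22 that fell. It was about as frequent in the proton pump list, with 7 of 15, and in the mitosis list, with 13 of 33. The E-box CACGTG contains this core, and 5 of the 18 hold it, against 6.49% of all promoters and 8.77% of those of tested genes. It was present in 4 of 15 promoters of the proton pump list and 7 of 32 of the hydrolase list. Other factors bind that sequence too. A match is only a match of letters.

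The cell cycle lists were lowest in their mitotic part. Mitotic genes are switched on late in the cycle, many through the promoter element TTTGAA, known as the cell cycle homology region. Of 40 mitosis genes 0 rose and 16 fell, against 5.72% lower among all genes, with a median log2 change of -0.55. The number that fell depended on each library, and was 25 without replicate 1 of DMSO, 5 and 6 without its replicates 2 and 3, and 6, 6 and 8 without replicates 1, 2 and 3 of STM2457. TOP2A, the topoisomerase of chromosome separation, had 5667, 6583 and 6258 in DMSO and 3700, 3985 and 3391 after STM2457 (-0.74, SE 0.10; adjusted p = 0.0032). NDC80, which binds kinetochores to microtubules, had 556, 585 and 578 against 298, 337 and 335 (-0.83, SE 0.12). ANLN, the anillin of the cleavage furrow, had 2177, 3179 and 2709 against 1403, 1499 and 1379 (-0.90, SE 0.14), and CDK1 fell by 0.72 (SE 0.12). All 4 separated the groups fully. Because these are bulk libraries, fewer cells in a phase and less RNA per cell cannot be told apart.

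The element TTTGAA was present on either strand in the 250 bases before the start in 13.6% of all promoters and in 8.80% of those of tested genes. In the mitosis list it was present in 18 of 33 matched promoters, and in 8 of the 14 matched among the 16 that fell. The promoter of ANLN is shown as an example, from chr7:36389712-36389861 on the plus strand of GRCh38.p14, with TTTGAA and its complement TTCAAA in capitals.
ANLN: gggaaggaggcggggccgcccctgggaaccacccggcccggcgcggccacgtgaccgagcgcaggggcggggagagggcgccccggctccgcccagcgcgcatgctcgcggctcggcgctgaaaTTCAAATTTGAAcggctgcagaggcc

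Replication genes were mostly at lower values, with 37 changes below 0 and 9 above it. Of 46 in that list 2 rose and 8 fell, with a median of -0.25, and 3 fell without replicate 2 of DMSO or replicate 2 of STM2457 and 4 without replicate 3 of either. RRM2, the regulated subunit of ribonucleotide reductase, had 2723, 3567 and 4264 in DMSO and 1076, 1174 and 1630 after STM2457 (-1.44, SE 0.19). The nucleotide synthesis genes TYMS and DUT fell by 1.20 (SE 0.16) and 0.65 (SE 0.10). FEN1, the flap endonuclease that trims Okazaki fragments and a gene of 2 exons, had 1710, 1758 and 2078 against 3854, 4772 and 4915 (1.28, SE 0.13; adjusted p = 0.0013). GINS3, a subunit of the replicative helicase, rose by 0.80 (SE 0.14). Of 15 genes of cyclin D and of inhibitors of its kinases 0 rose and 3 fell, and 0 kept the call. The cyclin kinase inhibitor gene CDKN1A (-0.17, SE 0.11; adjusted p = 0.34) did not pass.

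Several secreted binders of insulin-like growth factors fell, and so did some receptor tyrosine kinases and ligands. IGFBP proteins hold IGF outside the cell and modulate its access to the receptor. Of 16 genes of this axis 1 rose and 8 fell, against 5.72% lower among all genes, with a median log2 change of -0.89, and 5 fell without replicate 2 of STM2457. IGFBP3 had 8123, 5846 and 9009 in DMSO and 2313, 1925 and 1709 after STM2457 (-1.94, SE 0.17; adjusted p = 0.0012). IGFBP4 had 2904, 3719 and 6803 against 888, 882 and 1585 (-1.96, SE 0.32), while IGFBP7 and IGFBP6 fell by 1.00 (SE 0.13) and 0.64 (SE 0.10). IGFBP5 (-1.10; adjusted p = 0.096) did not pass. STC2, an inhibitor of the protease that cleaves IGF binders, fell by 1.13 (SE 0.13). The adaptor gene IRS1 had 5649, 5820 and 5974 against 7626, 9815 and 9331 (0.61, SE 0.11), the only rise in that list.

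Of 30 receptor kinase and ligand genes 1 rose and 8 fell, of which 0 and 6 kept the call, with a median of -0.18. PDGFRB, the PDGF receptor of mesenchymal cells, had 3302, 2973 and 2942 in DMSO and 1393, 947 and 975 after STM2457 (-1.50, SE 0.15; adjusted p = 0.0013). AXL had 11575, 13666 and 17494 against 4995, 6085 and 8011 (-1.17, SE 0.19), and its ligand gene GAS6 fell by 1.18 (SE 0.11). A receptor and its ligand were thus lower in the same libraries. The EGF receptor ligand genes EREG and TGFA fell by 1.19 (SE 0.20) and 1.80 (SE 0.31). In this list 12 genes were at positive values and 18 at negative ones. The receptor genes EGFR (0.24; adjusted p = 0.15), MET (0.40; adjusted p = 0.15) and PDGFRA (0.86; adjusted p = 0.27) were positive and did not pass. ERBB2 (-0.36; adjusted p = 0.20) did not pass either. Of 26 readouts of ERK signalling 1 rose and 3 fell, of which 1 and 2 kept the call, and 4 rose without replicate 1 of STM2457. EGR1, an immediate early gene, had 2160, 1799 and 2003 against 935, 847 and 903 (-1.15, SE 0.11), EPHA2 fell by 1.33 (SE 0.17), and PHLDA1 rose by 0.97 (SE 0.12).

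Developmental pathways changed at receptors and ligands. In Notch signalling a membrane ligand on 1 cell activates a receptor on the next. Of 16 Notch genes 1 rose and 3 fell, of which 0 and 2 kept the call. NOTCH3 had 6670, 7905 and 7222 in DMSO and 2560, 2215 and 2057 after STM2457 (-1.68, SE 0.11; adjusted p = 0.00043), and the ligand gene JAG1 fell by 0.74 (SE 0.12). NOTCH2, by contrast, was at 0.45 (SE 0.11), a call that was lost without any 1 library except replicate 1 of STM2457 (0.13). Of 29 WNT genes 7 rose and 2 fell, with a median of 0.06. The count of rises was 3 without replicate 2 of STM2457 and 4 without replicate 2 of DMSO or replicate 1 of STM2457. The Frizzled receptor genes FZD5 (0.87, SE 0.13), FZD8 (0.99, SE 0.17) and FZD4 (1.08, SE 0.20) rose, and SFRP2, a secreted decoy for WNT, had 87.6, 118 and 121 against 35.6, 35.1 and 37.2 (-1.56, SE 0.24).

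Of 45 axon guidance genes 2 rose and 10 fell, with a median of -0.22. The count of falls was 5 without replicate 2 of STM2457 and 6 without replicate 1 or 2 of DMSO or replicate 3 of STM2457. These genes encode semaphorins, plexins and Eph receptors, which guide cells as well as axons. SEMA7A had 5171, 6515 and 6941 in DMSO and 1743, 2394 and 2620 after STM2457 (-1.47, SE 0.17). The semaphorin receptor genes PLXNA3 and PLXNA1 fell by 0.85 (SE 0.12) and 0.66 (SE 0.11). EPHA3, a receptor of mesenchymal glioblastoma, fell by 2.18 (SE 0.36). SEMA3F rose from 11, 13.6 and 14.2 to 58.9, 48.9 and 71.1 (2.11, SE 0.32), and EPHB2 rose by 0.86 (SE 0.15).

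**Figure D4:**
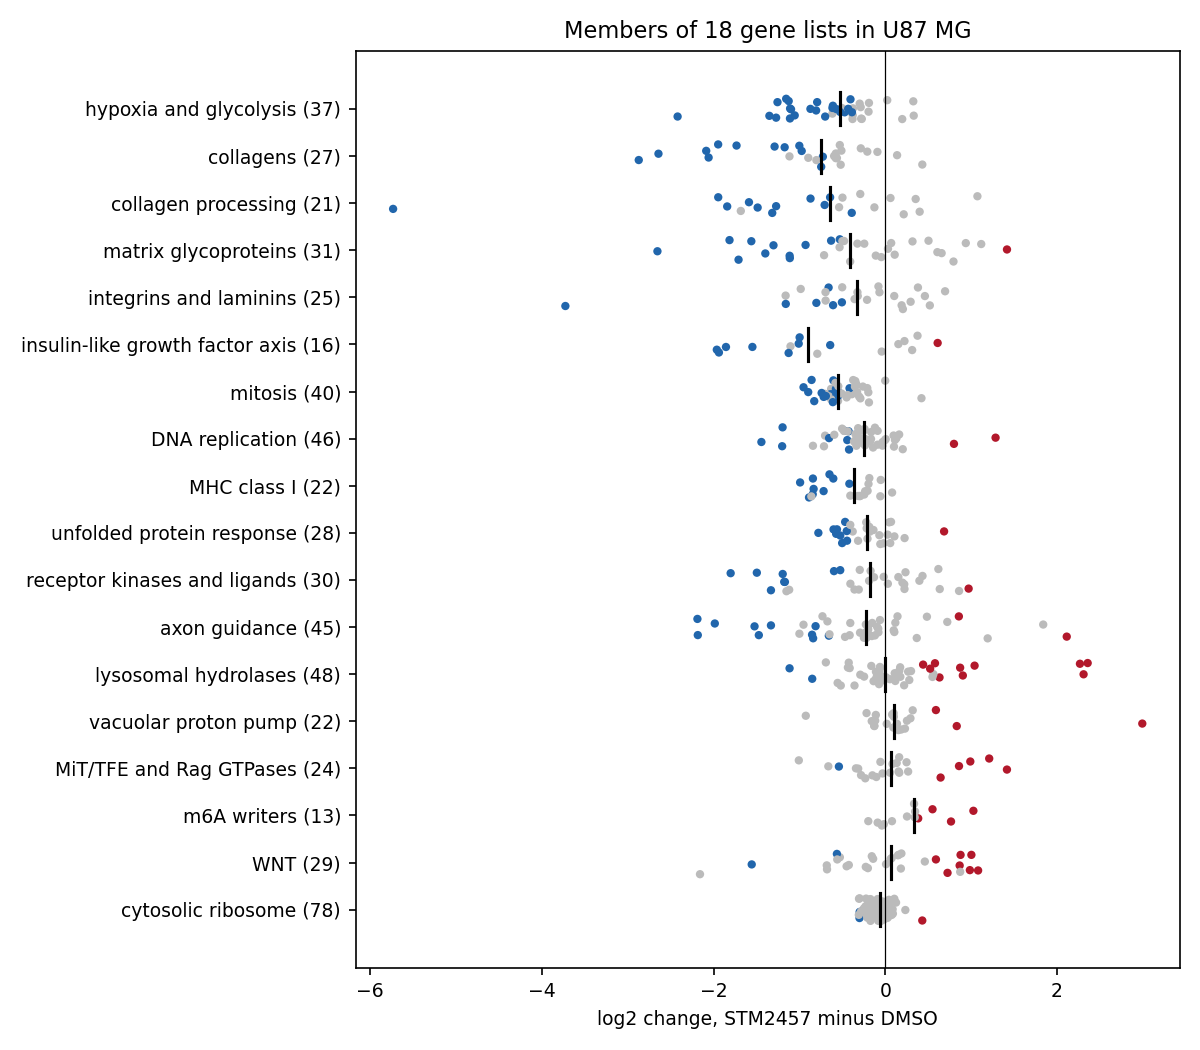
Log2 change (x axis, STM2457 minus DMSO) of each tested member of 18 gene lists in U87 MG, with the number of members in parentheses. Red points passed and were higher, blue passed and were lower, gray did not pass, and the black line is the list's median, which runs from -0.89 for the insulin-like growth factor axis to 0.34 for the m6A writers.

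Antigen presentation by MHC class I was lower at the heavy chains. Of 22 genes 0 rose and 9 fell, against 5.72% lower among all genes, with a median log2 change of -0.36, and 5 fell without replicate 2 of STM2457. HLA-B had 27156, 29503 and 31929 in DMSO and 15363, 17117 and 15356 after STM2457 (-0.89, SE 0.10; adjusted p = 0.0019), and HLA-C and HLA-F fell by 0.83 (SE 0.09) and 0.99 (SE 0.18). Reads of these near-identical genes can be assigned to the wrong copy, so the split between them is uncertain. PSMB10, a subunit of the immunoproteasome, fell by 0.72 (SE 0.11). Of 34 type I interferon genes 1 rose and 4 fell, of which 0 and 2 kept the call, and IRF1, an activator of MHC genes, fell by 0.82 (SE 0.15). Of 37 inflammatory genes 3 rose and 3 fell, of which 1 and 2 kept the call. IL24, a cytokine of the interleukin 10 family, had 78.2, 137 and 89.1 against 279, 861 and 874 (2.58, SE 0.42).

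Stress and housekeeping programs showed smaller shifts. Of 28 unfolded protein response genes 1 rose and 9 fell, with a median of -0.21. The count of falls was 2 without replicate 2 of STM2457, 4 without replicate 2 of DMSO, and 5 without replicate 1 or 3 of DMSO or replicate 1 of STM2457. The chaperone gene HSP90B1 had 28195, 29367 and 28811 in DMSO and 16376, 15333 and 18803 after STM2457 (-0.78, SE 0.10), whereas SDF2L1, a cofactor of the chaperone BiP, rose by 0.69 (SE 0.12). Of 30 ATF4 targets 3 rose and 7 fell, of which 0 and 4 kept the call, with a median of -0.30, and 13 fell without replicate 3 of DMSO and 4 without replicate 2. DDIT4, an inhibitor of mTORC1, had 11575, 15191 and 9510 against 5727, 4726 and 5176 (-1.19, SE 0.16), and PYCR1, an enzyme of proline synthesis, fell by 0.74 (SE 0.10). Of 27 NRF2 and glutathione genes 4 rose and 0 fell, and 3 kept the call, among them OSGIN1 (0.77, SE 0.11) and the peroxiredoxin repair gene SRXN1 (0.64, SE 0.10).

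The translation machinery moved little. Of 78 cytosolic ribosomal protein genes 1 rose and 2 fell, with a median of -0.07, and all 3 calls were lost without at least 1 library. Of 37 genes of splicing regulators 1 rose and 2 fell, of which 1 and 0 kept the call. HNRNPF, a binder of G-rich RNA, had 5704, 5013 and 5472 in DMSO and 8693, 8783 and 8688 after STM2457 (0.69, SE 0.09). Of 40 RNA decay genes 4 rose and 3 fell, of which 2 and 2 kept the call. The exosome gene EXOSC4 rose by 1.02 (SE 0.15) and SMG8, of nonsense-mediated decay, by 0.73 (SE 0.13), while the decapping scaffold EDC4 and the deadenylase gene PAN2 fell by 0.54 (SE 0.10) and 0.61 (SE 0.12). Of 30 cholesterol genes 3 rose and 1 fell, of which 1 and 0 kept the call, with a median of 0.18. Of 29 fatty acid genes 1 rose and 1 fell, and the fall, of ACADVL, an enzyme of mitochondrial beta-oxidation (-0.73, SE 0.09), was kept. Of 13 mitochondrially encoded mRNAs 1 rose, MT-CYB (0.54, SE 0.14), and it lost its call without replicate 2 or 3 of DMSO or replicate 1 or 3 of STM2457 (0.15).

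Among identity genes a few transcription factors changed in each direction. Of 17 mesenchymal genes 3 rose and 2 fell, of which 2 and 1 kept the call. SNAI2, a repressor that drives mesenchymal transition, had 1194, 1116 and 1208 in DMSO and 2069, 1812 and 1928 after STM2457 (0.72, SE 0.10), and ZEB2 rose by 0.61 (SE 0.10). In the stem and astrocyte list, 3 of 15 rose and 2 fell, of which 1 and 1 kept the call. SOX9, a factor of glial progenitors, had 367, 332 and 292 against 155, 123 and 165 (-1.16, SE 0.18), and SOX4 had 117, 125 and 117 against 220.3, 369.6 and 258 (1.20, SE 0.21). NES (-0.60, SE 0.11) lost its call without replicate 2 of STM2457 (0.056). VIM (0.05, SE 0.15; adjusted p = 0.87) and CD44 (0.11, SE 0.14; adjusted p = 0.66) had overlapping groups. Among 31 ion channel genes 3 rose and 3 fell, of which 3 and 2 kept the call, with KCNS3 at 1.03 (SE 0.12) and KCNMA1, the large calcium-activated potassium channel, at -0.74 (SE 0.11).

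The resistant derivative U87-R gave a similar number of changed genes, and most genes called in U87 MG had the same direction there. Its 6 libraries were separate from those of U87 MG and were prepared in the same way, but its medium held temozolomide. Of 16185 genes tested there 2373 changed (14.7%). The difference between the effects in U87 MG and U87-R was tested in a joint limma fit of the 12 libraries, and 0 of 15680 genes passed (0%), with 586 at an unadjusted p under 0.05. Separate fits of the tables called 1, and so did a pseudocount of 5. The median half-width of the 95% interval of a difference was 0.46 in log2 over the 11834 genes with a mean of at least 100, before any adjustment for the number of genes, and the adjusted test needs larger differences. Of the 2192 genes that passed in U87 MG and were tested in both lines, 2157 (98.4%) had the same direction in U87-R. Genes that passed in both lines with 1 direction numbered 1335, which is 60.9% of those called in U87 MG and 57.3% of the 2331 called in U87-R. Across 15680 genes Pearson's r between the effects was 0.65, a description over genes that share the kit and the parent line.

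**Figure D5:**
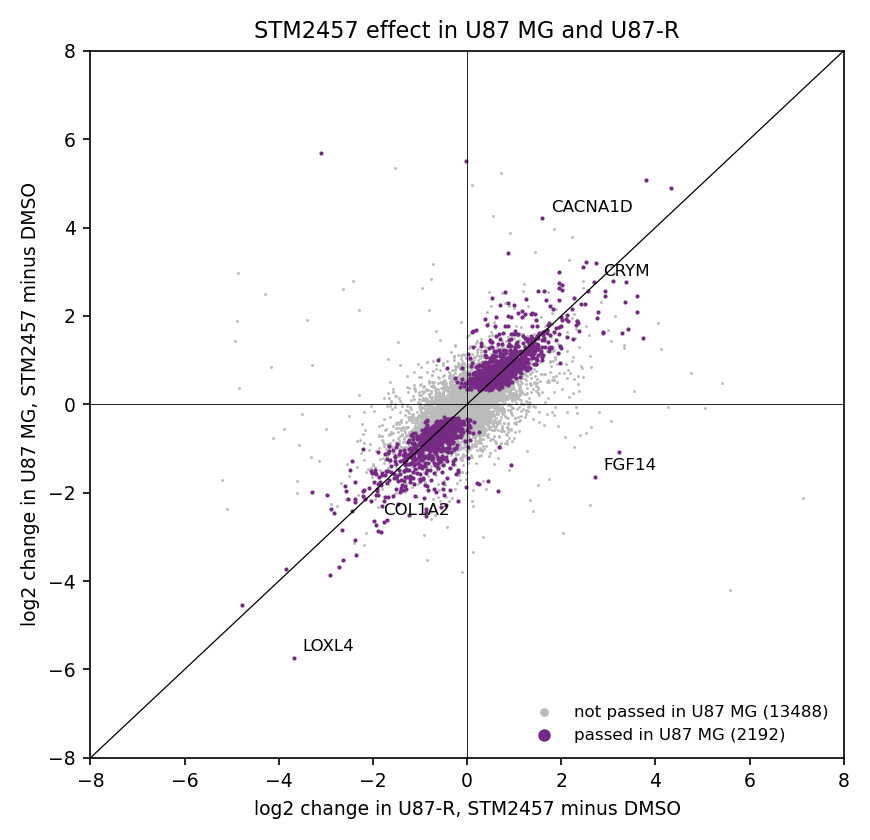
Log2 change with STM2457 in U87 MG (y axis) against that in U87-R (x axis) for 15680 genes, with the line of equal change. Purple points are the 2192 genes that passed in U87 MG and gray points those that did not. FGF14 lies far from the line, below 0 in U87 MG and above it in U87-R.

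Single genes show effects that lay close in the U87 lines and others that lay apart or had wide intervals. For RBM15B the change was 1.03 in U87 MG and 1.22 in U87-R, with a difference of -0.19 and a 95% interval of -0.50 to 0.13. For HLA-B the changes were -0.89 and -0.78, with a difference of -0.10 (-0.40 to 0.19). For CA9 they were -2.42 and -2.45, with a difference of 0.03 (-1.19 to 1.25), an interval that holds 2-fold differences either way. COL1A2 was at -2.64 and -1.97, a difference of -0.67 (-1.62 to 0.27). LOXL4 was at -5.73 and -3.68, a difference of -2.05 (-3.28 to -0.83; unadjusted p = 0.0031), which did not pass after adjustment over all genes. CACNA1D was at 4.22 and 1.60, with a difference of 2.62 (0.73 to 4.51; unadjusted p = 0.010). FGF14, a regulator of sodium channels and the gene called by both alternatives, was at -1.64 in U87 MG and 2.71 in U87-R, a difference of -4.35 (-5.58 to -3.13; adjusted p = 0.053). Its level was low, with means of 27.3 and 7.70 in DMSO and STM2457 of U87 MG and of 7.91 and 58.2 in U87-R, and its fall in U87 MG lost the call without any 1 library (0.16). FGF14 was singled out after its values were seen.

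List medians are set side by side for the 4 lines. The hypoxia and glycolysis list had a median of -0.52 in U87 MG and -0.79 in U87-R, where 30 of 37 members fell. In the libraries labelled LN229 it was 0.22 and in those labelled LN229-R 0.25. MHC class I genes had medians of -0.36 and -0.39 in U87 MG and U87-R, and 0.35 and 0.85 in the libraries labelled LN229 and LN229-R. The insulin-like growth factor axis had -0.89 and -0.41 against 0.72 and 0.75. ATF4 targets had -0.30 in U87 MG, 0.13 in U87-R and 0.71 and 0.74 in the libraries labelled LN229 and LN229-R. For the difference between the U87 lines 5 of its 30 members had an unadjusted p under 0.05, against 586 of all 15680 genes. That list was singled out after its values were seen, and its falls in U87 MG depended on single libraries, as given above. Lists with medians near 0 in both U87 lines also changed sign, among them the MYC network (-0.04 and 0.08), TGF-beta and BMP (0.05 and -0.04), type I interferon (-0.06 and 0.03), YAP and TAZ (-0.02 and 0.03) and mesenchymal genes (0.02 and -0.01). Mitosis genes were lower in all 4, with -0.55 in U87 MG, -0.34 in U87-R, -1.07 in LN229 and -1.24 in LN229-R. Of the genes called in U87 MG, 83.4% of 2037 tested had the same direction in the libraries labelled LN229 and 82.9% of 2002 in those labelled LN229-R. The names of the control libraries of the LN229 lines are exchanged between deposited tables, so which of those lines a value belongs to is uncertain. Their treated libraries occur in 1 table each and could not be matched. A change labelled LN229 or LN229-R may therefore set treated cells of 1 line against controls of the other. Kit, medium and line differ together between the U87 and LN229 libraries and cannot be told apart, and these differences between lines were not tested. The order by exon junctions was present in each line, with medians from 0.37 to -0.19 in the libraries labelled LN229 and from 0.26 to -0.09 in U87-R between the genes without a junction and those with over 6 per kb.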

How the data were processed

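Polyadenylated RNA of 24 libraries was sequenced, and the 6 of U87 MG were used here, with those of U87-R, LN229 and LN229-R beside them. The labels' protocols name Trizol extraction, oligo-dT beads and a stranded TruSeq mRNA kit for the U87 lines, and a Watchmaker mRNA kit for the LN229 lines. The authors deposited normalized counts, a signal whose scaling is not given in the sources used here, as 1 table per comparison of groups. DESeq2, Salmon 1.4.0, STAR 2.7.11a, Trimmomatic 0.39 and the build GRCh38 are listed in the submitters' processing notes, without order or settings. Whole reads could not be recovered from the values, so no count test was used.

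Values were increased by a pseudocount of 1 and taken to log2 here. They were fitted in R 4.3.3 by limma 3.58.1 with its intensity trend for the variance, and genes averaging under 10 across the 6 libraries were left out. A gene passed with a two-sided Benjamini-Hochberg adjusted p under 0.05 over all genes tested, and every p in the text is limma's. Effects in U87 MG and U87-R were compared in a joint fit. Alternatives were other pseudocounts, filters, scalings, variance models and thresholds, the replicate number as a block, and leaving out each library.

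Genes named are the 15 largest rises and falls among non-overlapping genes averaging at least 100, the most abundant that passed, the list members with the lowest adjusted p, and a fixed panel. Unnamed loci, pseudogenes and antisense genes were left out, and not every gene of the rule is printed; some genes and 1 gene list are not reported here. LOX, LAMP1, SQSTM1, YTHDF3, S100B, PGK1, ALDOA, LDHA, FGF14, the other list members said not to have passed and the genes picked for exon number lie outside this rule and were chosen after their values were seen. The members and gene lists were chosen with earlier results of these data known. Exon classes and promoter motifs were also chosen after the values were seen. Exons came from GENCODE release 29, and gene coordinates and promoters from RefSeq on GRCh38.p14. Exon and motif counts and plots used Python 3.11.15, pandas 2.3.3 and matplotlib 3.10.9.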

Additional observations from a re-analysis of the deposited data

How the results depend on the processing

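The count of changed genes in U87 MG was 1301 without a trend of the variance (787 higher, 514 lower), 783 at an adjusted p under 0.01 (490 and 293) and 599 with a log2 change of at least 1 (310 and 289). With the replicate block it was 4137 (2212 and 1925). The correlations of deviations between like-numbered libraries were 0.19, 0.04 and 0.17, and each library correlated best with its own number. The second principal component, with 21.4% of the variance, ran in the order of the replicate numbers in both groups. Its values were 41.9, -1.2 and -36.8 in DMSO and 30.2, -7.70 and -26.4 after STM2457. The labels do not say that a number marks a shared batch, so the numbers were not taken as pairs. Whether like numbers share a batch was not tested. Without 1 library the count was 890 to 1803, with 519 to 1073 higher and 371 to 767 lower, and 0 genes changed sign. Other pseudocounts, filters and scalings left it between 2029 and 2422. The number of genes whose effect differed from that in U87-R was 1 with separate fits, 1 with a pseudocount of 5 and 0 to 4 without 1 library, with 4 without replicate 3 of DMSO in U87 MG and 3 without replicate 1 of STM2457 in U87-R. Of 316 listed or named genes that had passed, 316 kept the call with the block, 184 without the variance trend, 295 with equal totals and 307 with equal upper quartiles, and none reversed under these. Medians near 0 changed sign under a scaling for 8 lists, among them lysosomal hydrolases (0.06 with equal totals) and autophagy (-0.02 with equal upper quartiles). Depth is known only as totals of normalized counts, so counting error per gene could not be given.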
